A study of Caenorhabditis elegans with 2 samples.

Results

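Chaperones are proteins that help other proteins fold, hold unfolded chains in solution and pass them between compartments. The genes described here are the protein-coding genes of Caenorhabditis elegans whose symbol begins with hsp- (heat shock protein), cct- (a subunit of the CCT chaperonin) or dnj- (a protein with a J domain, the Hsp40 family). In all, 59 of 19985 protein-coding genes of the Ensembl WBcel235 annotation met this rule. They fell into 9 constitutive chaperone genes (8 cct- genes and hsp-90), 7 heat-inducible genes (6 hsp-16 genes and hsp-70), 29 dnj- genes and 14 other hsp- genes. The gene group was chosen with earlier results of these data in view.

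The binding of REC-8 was profiled by chromatin immunoprecipitation and sequencing (ChIP-seq). REC-8 is the kleisin subunit of the cohesin ring that holds sister chromatids together in meiosis. There was 1 group of 2 biological replicates: whole young adult hermaphrodites of the strain YL563, a stable transgenic line in which REC-8 carried GFP-FLAG at its C terminus. The worms were bleached, starved as L1 larvae to synchronize them and collected 48 hours later, and no heat shock is named in the labels. Sonicated chromatin was precipitated with an antibody to GFP, per the sample description, although another label gives the antibody as rec-8. REC-8 is known from the germ line, and a whole worm also holds somatic cells, so a summit cannot be assigned to a tissue. Per the file notes a control entered the authors' peak calls, but no control library was analysed here.

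The deposited peak lists gave, for each peak, its summit and a signal value from the authors' peak caller. A relaxed list, made by the authors as input to a test of reproducibility, held 18953 peaks for both replicates pooled, 21160 for replicate 1 and 21503 for replicate 2. The authors' name for the pooled list says that it holds peaks and background, so an entry need not be a site of binding. Its q-values, given as −log10, ran from 0.018 to 2.37, and a low figure is weak support. A reproducible set held 606 peaks, which were exactly the 606 pooled peaks of highest signal (80.6 or more). Signal ran from 23.6 to 8471.9 in the pooled list, with a median of 31.0, and each list has its own scale, so ranks and signals are read only within a list. The files hold no read counts, so depth is unknown and no error can be put on a single signal value. A gene had a summit if at least 1 fell no more than 500 bp from an annotated start of a transcript of the gene, and the strongest such summit gave its value. In worms an annotated start is often the site where a leader RNA is spliced on.

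As background, the CCT ring folds actin and tubulin among other clients, and Hsp90 acts late in the folding of kinases and receptors. Hsp70 proteins bind exposed stretches of unfolded chains, driven by J-domain proteins that deliver the clients and start ATP hydrolysis. Small heat shock proteins, such as those of the hsp-16 genes, hold unfolded proteins without using ATP. The hsp-16 genes themselves are nearly silent until the animal is stressed. Heat shock factor (HSF-1 in worms) switches on the inducible genes through heat shock elements, which are inverted repeats of the unit GAA.

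REC-8::GFP summits lay at the starts of 32 of the 59 chaperone genes in the pooled list (54.2%, exact 95% interval 40.8 to 67.3), where 27.4% of all 19985 protein-coding genes had one. That list is relaxed and includes background, so these are entries of the list and not each a supported site of binding. The constitutive chaperones had the highest share among the groups, with 7 of 9 genes (77.8%, interval 40 to 97.2). The inducible genes had the lowest, with 2 of 7 (28.6%, interval 3.7 to 71.0), close to the background of all genes. That count includes 4 hsp-16 genes that lie in an exact repeat, and without them it was 2 of 3. In replicate 1 the inducible genes and the other hsp- genes had the same share (42.9%). The heat-inducible Hsp70 genes F44E5.4 and F44E5.5, which the name rule leaves out, shared a pooled summit of signal 53.2. The strongest summits among the 59 genes lay at hsp-90, cct-8, dnj-29, which encodes a J-domain protein related to Sec63 of the protein channel of the endoplasmic reticulum (ER), and hsp-3, which encodes an Hsp70 of the ER. Intervals cover the counting of genes only. The intervals of the constitutive and inducible groups overlapped, and no test of their difference was made.

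The sequences around the summits of hsp-90, cct-8 and cct-7 are shown because these 3 constitutive genes had the same 8 letters, a pair of heat shock units, within 100 bases of their summits. The stretch between hsp-16.2 and hsp-16.41 is shown because these were the only inducible genes with a summit in the pooled list. Both choices were made after the data were seen. The sequences were read from the RefSeq genome of WBcel235, the assembly also called ce11. The first 3 run 100 bases to each side of the pooled summit along the gene's strand: chrV:14685645-14685844 (plus strand) for hsp-90, chrIV:1094260-1094459 (minus strand) for cct-8 and chrV:1871983-1872182 (plus strand) for cct-7. The last covers the 220 bases between the outermost starts of both hsp-16 genes, chrV:1804958-1805177 (plus strand). Capitals mark pairs of heat shock units, GAANNTTC or TTCNNGAA, and overlapping or adjoining units are capitalised together.
hsp-90: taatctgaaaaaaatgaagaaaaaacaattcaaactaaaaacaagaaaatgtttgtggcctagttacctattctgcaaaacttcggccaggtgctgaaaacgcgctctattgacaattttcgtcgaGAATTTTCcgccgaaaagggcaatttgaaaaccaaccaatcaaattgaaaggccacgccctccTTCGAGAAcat
cct-8: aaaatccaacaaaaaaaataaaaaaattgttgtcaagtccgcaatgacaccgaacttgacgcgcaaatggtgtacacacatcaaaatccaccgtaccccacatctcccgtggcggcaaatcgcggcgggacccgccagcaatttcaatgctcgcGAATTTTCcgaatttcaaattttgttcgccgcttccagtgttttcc
cct-7: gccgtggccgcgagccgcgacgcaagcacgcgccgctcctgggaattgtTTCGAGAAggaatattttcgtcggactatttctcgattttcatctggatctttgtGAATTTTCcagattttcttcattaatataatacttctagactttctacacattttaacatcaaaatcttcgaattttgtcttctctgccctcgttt
hsp-16.2 and hsp-16.41: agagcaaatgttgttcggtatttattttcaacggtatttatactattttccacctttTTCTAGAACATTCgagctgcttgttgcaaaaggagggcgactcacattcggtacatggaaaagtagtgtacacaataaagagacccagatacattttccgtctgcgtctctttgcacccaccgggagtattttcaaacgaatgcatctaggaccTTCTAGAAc
In the hsp-90 window a pair of the form GAANNTTC and a pair of the form TTCNNGAA were found, as in the cct-7 window, and the cct-8 window held 1 pair, GAANNTTC. The hsp-16 stretch, which ends at the starts, held 1 whole element of 3 units. The promoter windows of hsp-16.2 and hsp-16.41, which run 50 bases past the outermost start, each held 2. The shared hsp-16 summit lay just outside the stretch, in an exon of the longer hsp-16.2 transcript.

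The CCT subunit genes are taken first. Of the 8 genes, 6 had a summit in the pooled list, 4 in the list of replicate 1, where 28.2% of all genes had one, and 5 in the list of replicate 2, where 29.9% did. The highest was cct-8, whose signal was 102.0 in the pooled list (rank 365 of 18953), 43.2 in replicate 1 (rank 657 of 21160) and 61.6 in replicate 2 (rank 261 of 21503). Its pooled peak (chrIV:1094145-1094574) had its summit 440 bp upstream of the cct-8 start, and in the replicates the summit lay 500 and 449 bp upstream. It is therefore near the edge of the 500 bp window, and the start of Y55F3AR.2 was nearer, at 181 bp.

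For cct-5 the signal was 52.0 (rank 1768) in the pooled list, 28.4 (rank 3017) in replicate 1 and 24.7 (rank 2764) in replicate 2. Its summit lay in an intron of cct-5, 143 bp inside the gene in the pooled list, 214 bp in replicate 1 and 144 bp in replicate 2. It was the only pooled CCT summit downstream of a start. For cct-7 the values were 48.3 (rank 2196) in the pooled list, 24.6 (rank 5161) in replicate 1 and 37.2 (rank 893) in replicate 2, at 163 bp upstream, 17 bp downstream and 239 bp upstream. The summit used for cct-7 thus lay on either side of the start in different lists. The remaining CCT summits were near the median of the pooled list and each was missing from 1 replicate. The gene cct-6 had signal 31.0 (rank 9429) in the pooled list and 26.9 (rank 2097) in replicate 2, and cct-4 had 30.6 (rank 9824) and 27.4 (rank 1966) there, with no summit in replicate 1 for either. In replicate 2 these signals lay at percentiles 90.3 and 90.9, above that of cct-5 (87.2). In contrast cct-1 had 30.2 (rank 10213) in the pooled list and 22.9 (rank 6783) in replicate 1, with none in replicate 2. These 3 pooled signals lay just under or at the list's median of 31.0. Their −log10 q was 0.128 for cct-6, 0.121 for cct-4 and 0.111 for cct-1 in the pooled list. The genes cct-2 and cct-3 had no summit in any relaxed list, and the nearest pooled summits were 2697 and 9971 bp from their starts. The subunits act together in 1 ring, and their genes ran from the upper ranks of the list to no summit at all.

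The gene hsp-90 encodes the cytosolic Hsp90. It had signal 161.4 in the pooled list (rank 117), 80.9 in replicate 1 (rank 127) and 85.8 in replicate 2 (rank 112), the highest of the 59 genes in every list. This put it at percentile 99.4, 99.4 and 99.5 of the peaks of those lists. Its pooled peak (chrV:14685530-14685959) lay in an intron of the longer hsp-90 transcript, whose start is further upstream, and the summit was 415 bp upstream of the start of the shorter transcript. In replicate 1 the distance was 435 bp and in replicate 2 it was 407 bp. The start of C47E8.4, on the opposite strand, was nearer, at 260 bp. Of the 7 constitutive genes with a pooled summit, 4 had another coding gene's start nearer to it (hsp-90, cct-8, cct-6 and cct-4), and 6 had one within 500 bp. Whether these summits belong to the chaperone gene or to its neighbour cannot be told apart from the positions. With each summit given to the nearest start only, 4 of the 9 constitutive genes had one and hsp-90 did not. With a 250 bp window hsp-90 also had none. Under either setting cct-8 was left with a weaker summit, at percentile 1.0 of the pooled list in place of 98.1.

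**Figure D1:**
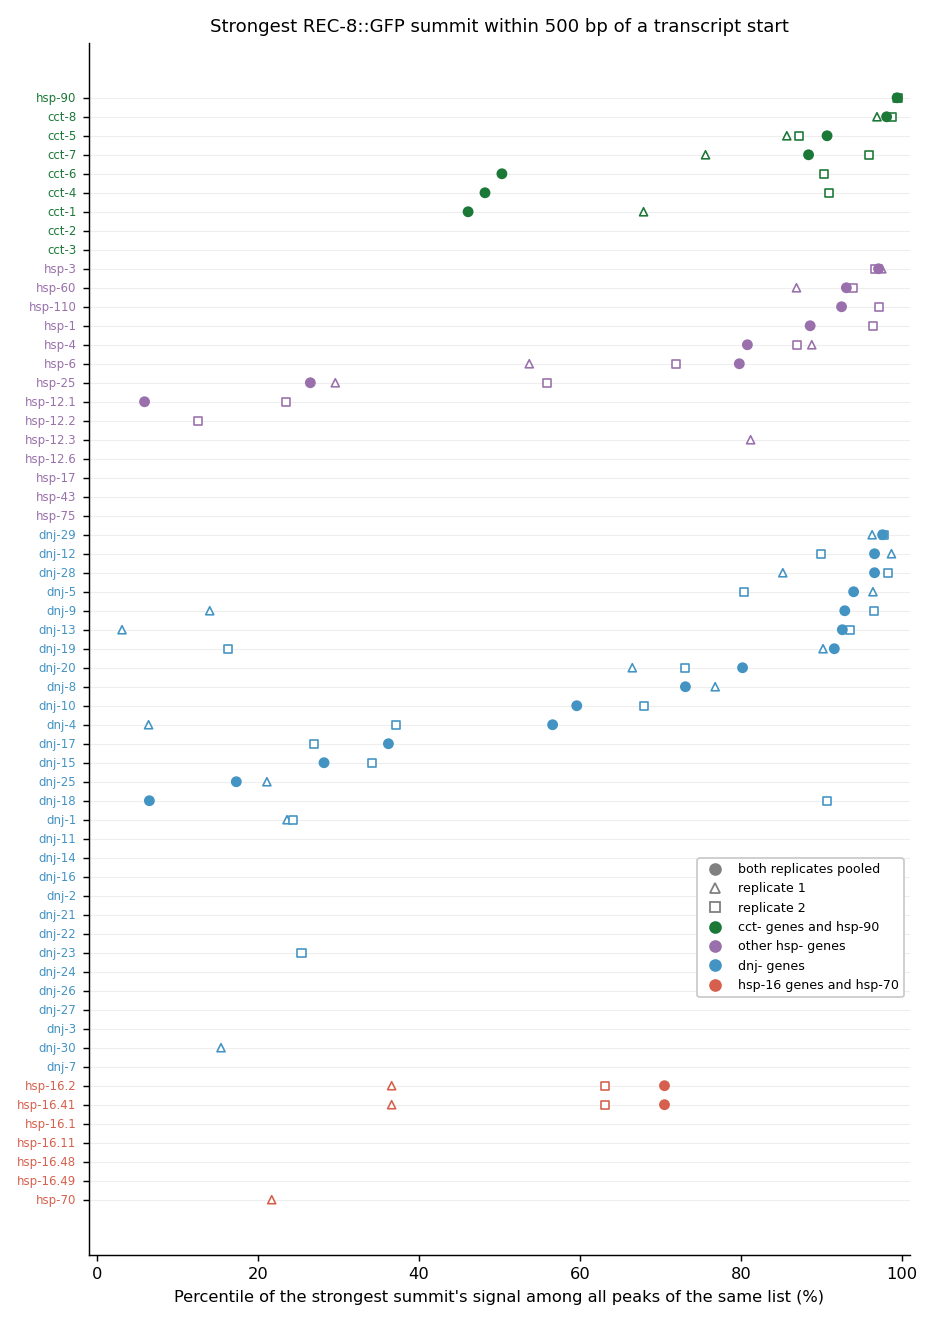
Signal percentile of the strongest REC-8::GFP summit within 500 bp of a start, among all peaks of the same list, for each of the 59 genes (rows; genes with no mark had no summit in that list). Filled circles are the pooled list, triangles replicate 1 and squares replicate 2; hsp-90, cct-8, dnj-29 and hsp-3 sit at percentile 96.3 or above in every list, while dnj-13 and dnj-9 are high in the pooled list and replicate 2 and low in replicate 1.

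The inducible genes had a summit at 2 of 7 in the pooled list, 3 of 7 in replicate 1 and 2 of 7 in replicate 2. The divergent pair hsp-16.2 and hsp-16.41 shared 1 peak (chrV:1804683-1805112), so both genes with a pooled summit rest on the same peak. Its signal was 36.5 in the pooled list (rank 5594), with a −log10 q of 0.280. This signal was above those of cct-1, cct-4 and cct-6 and below those of the other 4 constitutive genes with one. The replicates gave 18.2 in replicate 1 (rank 13425) and 17.9 in replicate 2 (rank 7931). The summit lay 28 bp upstream of hsp-16.2 and 280 bp upstream of hsp-16.41 in the pooled list, in each case measured from the nearest annotated start. In replicate 2 it was 65 bp inside hsp-16.2. The gene hsp-70, which encodes a heat-inducible Hsp70, had no summit in the pooled list or in replicate 2, and 1 of signal 16.7 (rank 16577), 448 bp upstream, in replicate 1. Its nearest pooled summit was 584 bp from the start, just outside the window.

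The other 4 hsp-16 genes, hsp-16.1, hsp-16.48, hsp-16.11 and hsp-16.49, had no summit in any relaxed list, and their nearest pooled summits were 6543, 6194, 4248 and 4559 bp away. These genes lie in an inverted repeat whose 2 copies were identical over 1325 of 1325 bases. Of the 971 stretches of 31 bases around each of their starts, 0 occurred once in the genome, whereas a median of 100% did for the other 55 genes (lowest 77.0%, dnj-28). Whether reads that map to more than 1 place were kept is not stated in the labels or file notes, so it is unknown whether a peak could have been called at these 4 genes. Without them, a choice made with the values in view, 2 of 3 inducible genes had a pooled summit. The start regions of the repeat are shown since they carry heat shock elements but no peak. The 300 bases upstream of hsp-16.48, in the gap between it and hsp-16.1, are chrV:9087831-9088130 (plus strand), and the 300 bases upstream of hsp-16.49, chrV:9089767-9090066 (minus strand), have the same letters. They held 2 elements of 3 units. Capitals mark the same unit pairs as above.
hsp-16.1 and hsp-16.48: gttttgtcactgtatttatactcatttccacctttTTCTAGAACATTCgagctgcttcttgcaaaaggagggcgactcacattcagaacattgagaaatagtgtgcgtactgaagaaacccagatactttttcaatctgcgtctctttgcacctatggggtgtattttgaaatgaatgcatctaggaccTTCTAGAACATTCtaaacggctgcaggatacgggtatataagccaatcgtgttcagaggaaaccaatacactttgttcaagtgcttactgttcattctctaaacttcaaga

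**Figure D2:**
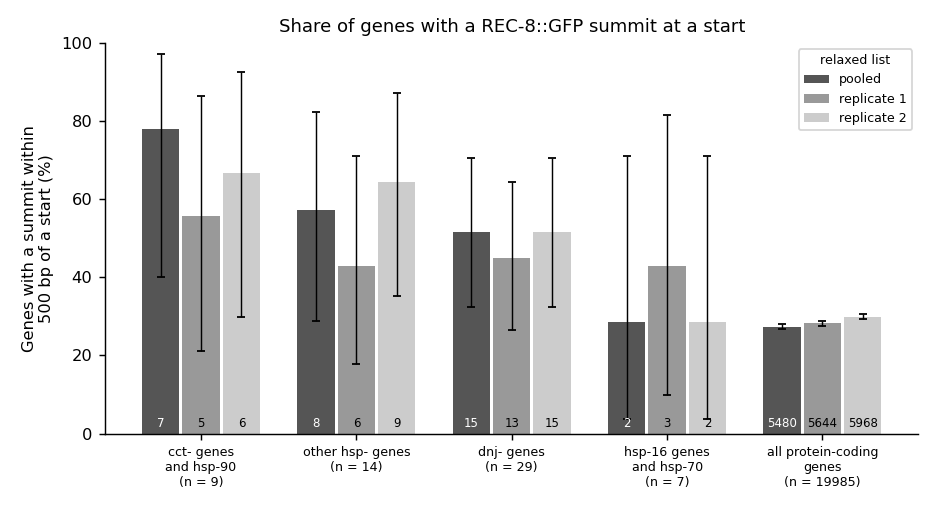
Share of genes with a REC-8::GFP summit within 500 bp of a start in each relaxed list, by group; bars start at 0, numbers in the bars are genes and lines are exact 95% intervals for the counting of genes. The constitutive group stands highest in the pooled list (77.8%), the hsp-16 and hsp-70 group at 28.6% is near all protein-coding genes (27.4%), and the intervals of the small groups are wide.

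Among the Hsp70 genes that are active without heat shock and their partner hsp-110, all 5 genes of this list had a pooled summit, where 27.4% of all genes did. In replicate 1 it was 3 of the 5 (28.2% of all genes) and in replicate 2 all 5 (29.9%). This list was drawn up with earlier results of these data known. The 5 genes were hsp-3 and hsp-4 (the Hsp70s of the ER), hsp-1 (the cytosolic Hsc70), hsp-6 (the mitochondrial Hsp70) and hsp-110 (a nucleotide exchange factor for Hsp70). The gene hsp-3 ranked highest of these, with signal 84.4 (rank 546) in the pooled list, 46.7 (rank 528) in replicate 1 and 40.7 (rank 707) in replicate 2. Its summit lay at the start itself, 22 bp inside the gene in the pooled list, 16 bp upstream in replicate 1 and 14 bp inside in replicate 2. No other coding gene's start was within 500 bp, and the 200 bases around the summit had a GC content of 62.0%, the highest of the 32 genes. The peak of hsp-3 is chrX:6091887-6092316.

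For hsp-110 the signal was 56.0 (rank 1421) in the pooled list and 43.1 (rank 634) in replicate 2, and for hsp-1 it was 48.5 (rank 2160) and 39.3 (rank 774). Neither had a summit in replicate 1. The start of rpn-3, which encodes a proteasome subunit, was nearer to the hsp-110 summit (153 bp) than that of hsp-110 (291 bp). In hsp-4 the signal was 41.5 (rank 3639), 30.2 (rank 2380) and 24.7 (rank 2786) in the pooled list and replicates 1 and 2, and in hsp-6 it was 40.8 (rank 3828), 20.4 (rank 9800) and 19.5 (rank 6054). Both were thus found in every list, hsp-4 at percentiles 80.8 to 88.8 and hsp-6 at 53.7 to 79.8. The pooled hsp-6 summit lay 404 bp upstream of hsp-6, and the start of C37H5.5 was nearer, at 196 bp. The pooled hsp-4 summit lay in an exon of hsp-4, 65 bp upstream of a start inside the gene. The mitochondrial chaperonin gene hsp-60 had 57.7 (rank 1317), 29.0 (rank 2773) and 31.6 (rank 1310). Its pooled summit lay in an exon of hsp-60, 67 bp upstream of a start inside the gene. The gene hsp-75, for the mitochondrial Hsp90, had no summit in any relaxed list. Of the 7 small heat shock genes outside the hsp-16 group, 2 had a pooled summit (28.6%, where 27.4% of all genes did), both low in the list. Of these, hsp-25 (signal 26.9, rank 13933) had its summit in an intron of the gene, and hsp-12.1 had signal 24.3 (rank 17833) in the pooled list, 13.5 (rank 16453) in replicate 2 and no summit in replicate 1. None of the 7 was among the peaks above the list's median signal, where 16.6% of all genes and 24 of the 59 chaperone genes (40.7%) had one. In the replicate lists alone, hsp-12.3 had signal 26.4 (rank 3970, percentile 81.2) in replicate 1 and hsp-12.2 had 12.7 (rank 18813) in replicate 2, and hsp-12.6, hsp-17 and hsp-43 had none in any relaxed list.

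The J-domain genes were split nearly evenly. Of 29 dnj- genes, 15 had a pooled summit (51.7%, interval 32.5 to 70.6), with a median signal of 41, where 27.4% of all genes had one, with a median of 33.7. The gene dnj-29 (peak chrI:14113137-14113566) had signal 92.9 (rank 450) in the pooled list, 40.6 (rank 792) in replicate 1 and 48.9 (rank 476) in replicate 2, with summits 244, 238 and 181 bp upstream. The start of ndua-2 was 284 bp from the pooled summit. For dnj-28 the signal was 78.5 (rank 636), 28.2 (rank 3127) and 55.4 (rank 357), and for dnj-12, a class A partner of Hsp70, it was 78.0 (rank 650), 61.9 (rank 267) and 26.7 (rank 2162). These genes ranked alike in the pooled list and went opposite ways in the replicates, dnj-28 being higher in rank in replicate 2 and dnj-12 in replicate 1. The start of mtx-1 was 126 bp from the dnj-12 summit, nearer than the 366 bp to dnj-12.

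Further down, dnj-5 had signal 60.8 (rank 1131) in the pooled list, 40.9 (rank 772) in replicate 1 and 21.8 (rank 4207) in replicate 2, in an exon 418 bp inside the gene in the pooled list. The gene dnj-9 had 57.0 (rank 1350) in the pooled list, rank 18203 in replicate 1 and 39.8 (rank 747) in replicate 2, and dnj-13 had 56.2 (rank 1412), 15.2 (rank 20500) and 30.9 (rank 1396). Both stood near the end of the replicate 1 list and high in the other lists. The summit of dnj-19 (53.8, rank 1593 in the pooled list; 31.3, rank 2083 in replicate 1; 13.0, rank 17998 in replicate 2) was 482 bp from its own start and 86 bp from that of nhr-47, a nuclear receptor gene. The other 8 dnj- genes with a pooled summit, dnj-20, dnj-8, dnj-10, dnj-4, dnj-17, dnj-15, dnj-25 and dnj-18, had signals from 24.3 to 41. The genes dnj-1, dnj-23 and dnj-30 had a summit in a replicate list only. The remaining 11, dnj-2, dnj-3, dnj-7, dnj-11, dnj-14, dnj-16, dnj-21, dnj-22, dnj-24, dnj-26 and dnj-27, had none in any relaxed list.

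Agreement between the replicates was partial. Replicate 1 had a summit at 27 of the 59 genes and replicate 2 at 32, and 21 (35.6%) had one in both lists, where 15.3% of all genes did. A summit was present in the pooled list and both replicate lists at 20 genes (33.9%), against 14.0% of all genes. In 38 genes a summit was found in at least 1 relaxed list and in 21 in none. There were 6 genes with one in a replicate list but not in the pooled list (dnj-1, dnj-23, dnj-30, hsp-70, hsp-12.2 and hsp-12.3). The counts of 38, 21 and 6 were not made over all genes, so they only describe the chaperone genes. The 32 genes with a pooled summit rest on 31 distinct peaks, as hsp-16.2 and hsp-16.41 share 1. Of these genes, 16 had a summit of both replicates within 100 bp of the pooled summit. Another 5 had one of replicate 1 only, 9 of replicate 2 only and 2 of neither. This matching was done for the chaperone genes only, so it cannot be set beside that of all genes. The pooled list was made from the same 2 replicates, so it is not a separate measurement. In the reproducible set 4 of 59 genes (6.78%) had a summit, namely hsp-90, cct-8, dnj-29 and hsp-3, where 1.60% of all genes did. By groups this was 2 constitutive, 0 inducible, 1 dnj- and 1 other hsp- gene.

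The higher share held across signal levels. At a pooled signal of 30 or more the share was 44.1% of the chaperone genes and 17.8% of all genes, at 40 or more 30.5% and 8.92%, at 60 or more 11.9% and 3.02%, and at 100 or more 3.39% and 0.956%. The median signal of the 32 genes with a summit was 41.2 (range 24.3 to 161.4), and that of the 5480 protein-coding genes with one was 33.7. By group it was 48.3 for the constitutive genes, 45 for the other hsp- genes, 41 for the dnj- genes and 36.5 for the inducible genes. The inducible value is that of 1 peak, shared by hsp-16.2 and hsp-16.41. No test of these differences was made, and genes that share a promoter region are not independent.

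**Figure D3:**
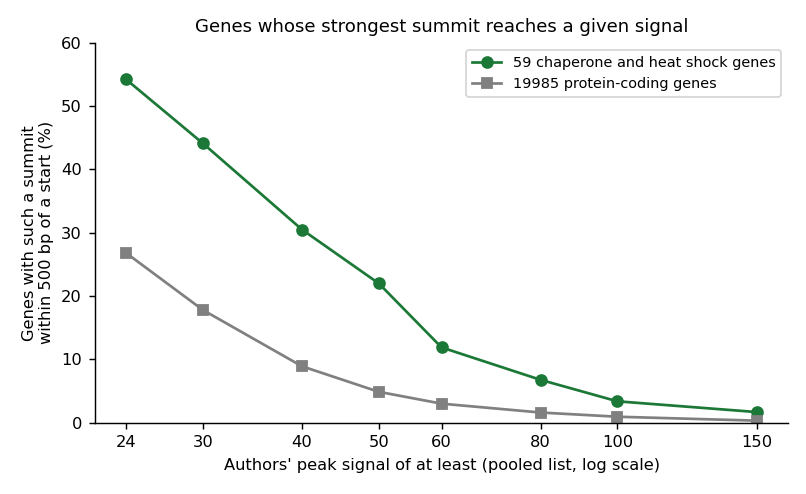
Share of genes whose strongest pooled summit within 500 bp of a start reached a given signal (log axis), for the 59 chaperone genes and all 19985 protein-coding genes. The chaperone line is above the line of all genes at every level drawn, from 54.2% against 26.8% at 24 to 1.69% against 0.335% at 150, where it rests on hsp-90 alone.

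The number of annotated starts and the chromosome differed between the chaperone genes and all genes. Of the 59 genes, 33 (55.9%) had 1 annotated start, against 72.6% of all genes, and a gene with more starts has a wider window in which a summit is counted. Among genes with 1 start, 14 of 33 chaperone genes (42.4%) and 22.7% of all genes had a pooled summit, and among genes with more starts 18 of 26 (69.2%) and 40% did. The share of the chaperone genes was above that of all genes in each class. Whether the width of the window accounts for the difference was not tested. By chromosome, 8 of 11 chaperone genes on chromosome II, 7 of 11 on III, 7 of 14 on V, 5 of 9 on I, 3 of 9 on IV and 2 of 5 on X had a pooled summit, where the share of all genes was 27.2%, 36.7%, 20.7%, 36.1%, 27.8% and 21.3%. Cytosolic ribosomal protein genes, set beside the chaperone genes as another housekeeping family, had 56 of 81 (69.1%) in the pooled list and 14 of 81 in the reproducible set.

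Most of the chaperone summits lay upstream of the gene's nearest annotated start. Of the 32 genes, 25 (78.1%) had the summit on that side, against 57.1% over all genes with one. The median distance was 246.5 bp against 212.0 bp. The nearest start can lie inside a gene. The summits of hsp-90, dnj-15, hsp-4, hsp-60 and hsp-16.2 are counted as upstream but lie within those genes. Another coding gene's start was nearer at 9 of the 32 (28.1%, against 8.91%), and another coding start was within 500 bp of the summit at 14 (43.8%, against 17.8%). Divergent or crowded starts were thus more frequent in these genes than over all genes with a summit, by a count with no test. No tRNA, snoRNA or snRNA gene start lay within 500 bp of the summit of any of the 32 genes (0 of 32), where 186 of the 5480 genes (3.39%) had one. The summits fell in exons at 10 genes, in introns at 6 and between genes at 16. GC content in 200 bp around them had a median of 38.0% (range 22.0 to 62.0), and that around the strongest summits of all genes was 37.5%.

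**Figure D4:**
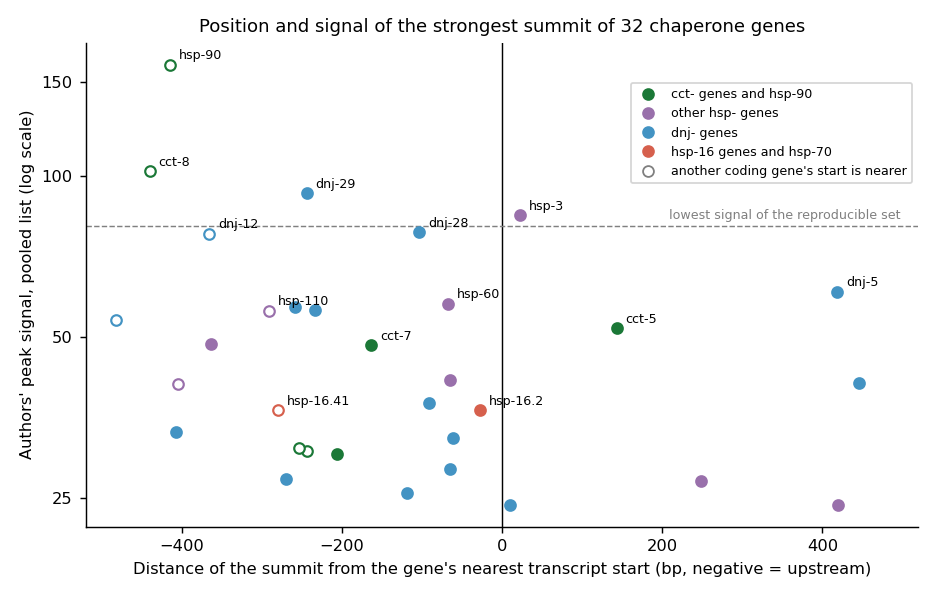
Distance of the strongest pooled summit from the gene's nearest transcript start (bp, negative is upstream) against its signal (log axis), for the 32 chaperone genes with one; open points are summits nearer to another coding gene's start, and the dashed line is the lowest signal of the reproducible set. The strongest points, hsp-90 and cct-8, lie 415 and 440 bp upstream and are open, while hsp-3 lies at 22 bp.

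Along the gene bodies, pooled summits were present at 0.308 per kb over all 59 genes together, at 0.438 for the constitutive, 0.497 for the other hsp-, 0.202 for the dnj- and 0.182 for the inducible genes, against 0.197 over all protein-coding genes. The dnj- genes were thus close to the density of all genes. The inducible value rests on 1 summit, that of hsp-16.2, and 4 of the 7 inducible genes lie in the exact repeat. The 500 bp limit was drawn close to some genes: dnj-19 at 482 bp, hsp-12.1 at 419 bp and hsp-90 at 415 bp were the last inside it by the distance to the nearest pooled summit, and hsp-70 at 584 bp, hsp-12.3 at 651 bp and dnj-11 at 1078 bp were the first outside.

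Heat shock elements were searched in the 300 bases from 250 before to 50 after the outermost start of each gene, on both strands. An element of 3 alternating units was found in 11 of the 59 chaperone promoters (18.6%), where 1.97% of all promoters held one. It was present in 7 of 7 inducible genes, and beyond them in hsp-90, hsp-1, hsp-110 and dnj-12. Of these 11 genes, 6 had a pooled summit (54.5%), and of the other 48 chaperone genes 26 did (54.2%). Over all genes the shares were 32.1% with the element and 27.3% without. Of the 5 genes with the element and no pooled summit, 4 are the hsp-16 genes of the exact repeat, and without them, a choice made with the values in view, 6 of 7 genes with the element had a summit (85.7%). The promoter window is set by the start and need not hold the summit. In the 200 bases around the summits it was found at 1 of 31 peaks (hsp-110), against 1.22% of the 5004 strongest summits of all genes. The shorter pairs were more widely spread: GAANNTTC was in 10 of 31 summit windows (32.3%, against 11.8%) and TTCNNGAA in 8 (25.8%, against 11.7%). Other motifs were searched in the same windows. The GC box (CCGCCC) was in 6.45% against 6.79%, and the B box core (GGTTCGA) in 0 of 31 against 2.52%. The GA repeat (GAGAGA) was in 22.6% against 14.6%, and the TATA box (TATAAA) in 19.4% against 24.1%. A match to these letters is a description of the sequence and not a sign that a factor was bound.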

How the data were processed

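Peaks of 2 biological replicates of 1 group were analysed, with no control library. Per the file notes, the authors deposited narrowPeak lists on ce11 for each replicate (relaxed), both pooled (relaxed) and a reproducible set chosen by the irreproducible discovery rate (IDR); ce10 lists were not used. The deposited signal column holds the peak caller's value for each peak, and the deposited q-value column is −log10 (0.018 to 2.37 in the pooled list). Neither labels nor file notes name the aligner, the peak caller, the use of multi-mapping reads or the IDR threshold: these are not given in the sources used. Depth is unknown.

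Members and gene lists were chosen with earlier results of these data known. Summits (peak start plus the summit offset) were joined to transcript starts of Ensembl release 115. Of the symbols, 2 were shared by 2 genes each, and RefSeq coordinates gave hsp-16.11 and hsp-16.49. Intervals are exact 95% Clopper-Pearson. No test between groups or lists was run. Motifs were searched on both strands: the heat shock element of 3 units, and the unit pairs GAANNTTC and TTCNNGAA, which overlap within it. The GC box, the B box core, the GA repeat and the TATA box were also searched, and GAATTTTC was added after the data were seen. Named with values in every list were hsp-90, the cct- and hsp-16 genes, hsp-70, genes at reproducible summits, the 10 of highest pooled signal and the 3 nearest the 500 bp limit on each side. Other genes were named after their values were seen. Alternatives were windows of 250 and 1000 bp, outermost starts, each replicate alone, stricter lists, interval overlap, nearest gene only and summits away from small RNA genes. Scripts were tested on simulated peaks and used Python 3.11.15, numpy 2.4.6, pandas 2.3.3, scipy 1.17.1 and matplotlib 3.10.9.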

Additional observations from a re-analysis of the deposited data

How the results depend on the processing

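Of the counts of genes with a pooled summit, those below moved by over 1.5 times. With a 250 bp window the count was 20 for all 59 genes, 1 for the inducible and 4 for the other hsp- genes, but all genes fell too, to 17% against 33.9% of the chaperone genes. In the reproducible set the counts were 4 for all, 2 constitutive, 0 inducible, 1 dnj- and 1 other hsp- gene. With each summit given to the nearest start only, 4 constitutive, 1 inducible and 4 other hsp- genes had one, and from outermost starts 5 other hsp- genes did. The median signal of 41.2 was 37.1 at 250 bp, 39.2 from outermost starts and 37.9 with the nearest start only. The percentile of cct-8 (98.1) was 1.0 both at 250 bp and with the nearest start only, where a weaker summit took the place of the first, and hsp-90 had no summit at 250 bp, from its outermost start or with the nearest start only. Of the 32 genes with a pooled summit, 16 had it matched in both replicates within 100 bp and 7 within 50 bp. With a 250 bp window around starts, 9 of the 20 genes with a pooled summit had it matched within 100 bp. With each replicate left out in turn, the counts were 27 to 32 for all, 5 to 6 constitutive, 2 to 3 inducible, 13 to 15 dnj- and 6 to 9 other hsp- genes. In the same way the median signal was 24.6 to 24.7 (on the replicates' own scales), the hsp-90 percentile 99.4 to 99.5 and that of dnj-29 96.3 to 97.8. The share of chaperone genes was above that of all genes in each of the settings run over all genes, from 6.78% against 1.60% in the reproducible set to 57.6% against 40.2% at 1000 bp. The cause of these changes was not tested. No paired analysis was possible because there was 1 group. Depth is unknown, there are 2 replicates, and small groups leave intervals wide.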

Other observations

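Other genes of protein folding, from lists chosen with earlier results of these data known, had pooled summits as follows, where 27.4% of all protein-coding genes had one. Of 6 prefoldin genes, whose complex hands actin and tubulin to CCT, 4 had one, and pfd-4 had signal 81.0 (rank 596), 107 bp upstream. Of 12 co-chaperone genes of Hsp70 and Hsp90, 8 had one. The highest were ahsa-1, whose protein activates the Hsp90 ATPase (145.9, rank 158), and bag-1, whose protein releases nucleotide from Hsp70 (107.3, rank 319). In replicates 1 and 2 the ranks were 232 and 127 for ahsa-1 and 2068 and 117 for bag-1. Of 8 ER folding genes 6 had one, led by enpl-1, the ER Hsp90 (78.4, rank 640). Of 12 stress regulator genes 6 had one, and xbp-1, a regulator of the ER stress response, was highest (55.7, rank 1445). The gene hsf-1, for the heat shock factor, had none in any relaxed list.

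The heat-inducible Hsp70 genes F44E5.4 and F44E5.5, whose symbols fall outside the hsp- rule, shared a summit of signal 53.2 (rank 1649), 191 and 160 bp upstream. Its ranks were 2006 in replicate 1 and 8386 in replicate 2. This inducible pair therefore stood above the hsp-16 summit in the pooled list.

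The 8 letters GAATTTTC, noticed at hsp-90 and cct-8, were found in 5 of 31 chaperone summit windows (hsp-90, cct-8, cct-7, dnj-15 and hsp-60), against 4.34% of the 5004 windows of all genes. In the 300-base promoters the shares were 6.78% and 7%. The motif was chosen after these sequences were seen, so the counts are a description.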
